A study of Mus musculus with 9 samples.

Results

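The gene set described here holds 39 mouse genes, among them Ttr, Folr1, Kl and F5, that were high together in 3 of 9 cerebellar RNA-seq libraries. The 39 genes are those of 37816 whose lowest level in 15Q replicate 1, 15Q replicate 3 and 84Q replicate 2 was at least 2 times their highest level in the other 6 libraries and at least 0.5 CPM (counts per 1000000 counts of the library). In all, 17028 genes reached 0.5 CPM in each of these 3 libraries, and 44 genes met both numbers. Of these, 5 whose symbols begin with Col, Kcn or Igf were left out of the set by its definition. The members were thus selected on their measured CPM in all 9 libraries, so the pattern across libraries is given as a description without a test, and the 3 libraries are called the high libraries below only because the definition names them. The genes nearest to the ratio of 2 from above were Msx1 with 2.13, Myh7 with 2.17 and Htr2c with 2.19. Just below it lay Gm44250 with 1.99, Npr3 with 1.95 and Col8a2 with 1.92, and Tc2n met the ratio with 2.16 but reached only 0.483 CPM.

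The libraries come from the cerebellum of 9 transgenic mice on a C57BL/6 background, 3 per group, harvested at 18 months of age. Every animal, controls included, holds human ATXN3 on a yeast artificial chromosome, a transgene that brings the gene's own regulatory sequence, with a repeat for 15 glutamines in the 15Q controls and for 84 in the 84Q model of spinocerebellar ataxia type 3. The 84Q+IGF1 mice hold the 84Q transgene and received 50 mg/kg IGF-1 once a week by intraperitoneal injection between the ages of 9 and 18 months. The treatment protocol gives PBS (0.01 M) for the other mice, whose samples carry the label untreated. Counts on genes summed to between 17482654 in 84Q replicate 3 and 58269196 in 15Q replicate 3, so that a count of 3, the floor used here, corresponded to 0.0515 to 0.172 CPM. High Xist or high Ddx3y, an X-linked and a Y-linked RNA, did not separate the high libraries from the rest, since 15Q replicate 3 had 953 CPM of Xist, whereas 15Q replicate 1 and 84Q replicate 2 had 74.5 and 64.8 CPM of Ddx3y.

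The choroid plexus is a folded epithelium in the brain ventricles, including the fourth ventricle that lies under the cerebellum. Its cells make the cerebrospinal fluid by moving ions, bicarbonate and water from leaky, fenestrated vessels across a layer sealed by tight junctions, and they secrete carrier proteins and growth factors into the fluid. Transthyretin, the product of Ttr, is the best known of these carriers, and the cells also carry the folate receptor Folr1, which brings folate to the brain. The plexus is attached to the tissue around it, and it is not part of the cerebellar cortex, whose neurons do not make transthyretin in quantity.

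For a description of the set by role, 47 genes known from the choroid plexus epithelium were collected in 6 lists, and 21 of the 47 were among the 39 members. They were 6 of 8 secreted proteins, 4 of 6 receptors, 3 of 8 ion and water transporters, 1 of 7 solute carriers, 1 of 4 transcription factors and 6 of 14 barrier and other genes. Several list genes that did not enter the set are widely expressed in the cerebellum, such as Slc12a2, a chloride cotransporter with 117 to 156 CPM in the 9 libraries, and Slc4a10, a bicarbonate transporter with 196 to 242 CPM. Clic6 and Ace, both abundant in the plexus, came close to the ratio of 2, with 1.82 and 1.83. Otx2, Krt8 and Wfdc2, with ratios of 0.895, 0.276 and 0.747, also did not enter it. The defining markers Ttr, Folr1, Kl, Aqp1 and Cldn2 are members, the first 3 of them named by the definition itself, and 18 members are on none of the 6 lists. Members and lists were both chosen with these levels known, so the counts describe the set and are no independent check of its name.

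**Figure D1:**
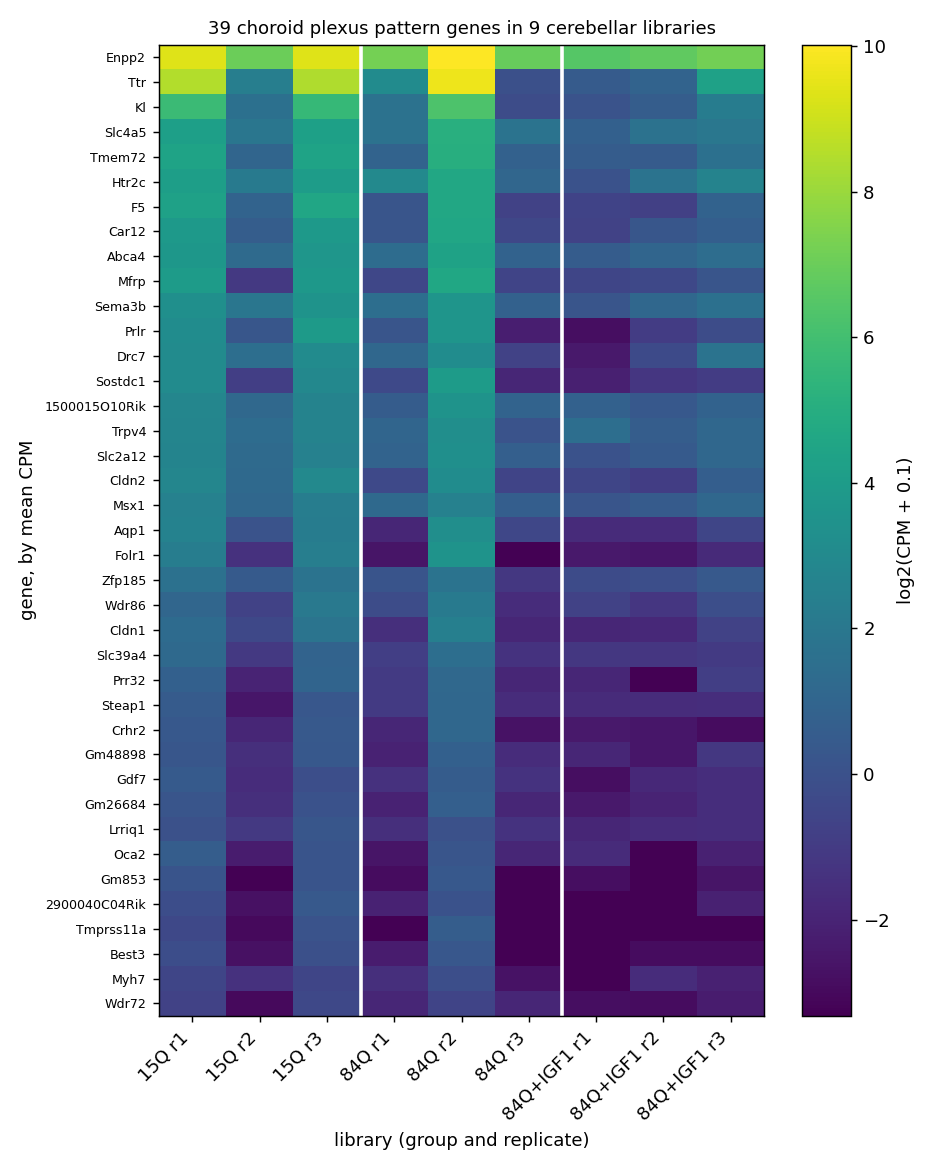
Level of each of the 39 genes (rows, ordered by mean CPM) in each of the 9 libraries (columns, white lines between groups), as log2(CPM + 0.1). The columns of 15Q replicate 1, 15Q replicate 3 and 84Q replicate 2 are brighter than the other 6 in every row, which the selection required, and 84Q replicate 2 holds the highest value for 32 of the 39 genes.

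Together the 39 genes took 1298 CPM in 15Q replicate 1, 1273 in 15Q replicate 3 and 2284 in 84Q replicate 2. The sums in the other 6 libraries were 178 CPM in 15Q replicate 2, 201 in 84Q replicate 1, 147 in 84Q replicate 3, and 113, 135 and 213 in 84Q+IGF1 replicates 1, 2 and 3. The set was thus 0.228% of all counts where it was highest and 0.0113% where it was lowest, and each high library shares its group with at least 1 library that is not high. In bulk tissue, fewer cells of a type and less RNA per cell cannot be told apart. Enpp2 and Ttr made up most of these sums. Without this pair, the sums were 278, 281 and 416 CPM in the 3 high libraries and 19.4 to 47.5 CPM in the other 6.

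Among the secreted proteins, Ttr, which carries thyroid hormone, spanned the widest range. Its level in the 15Q libraries was 354, 5.12 and 341 CPM, in the 84Q libraries 8.70, 830 and 0.858 CPM, and in the 84Q+IGF1 libraries 1.32, 1.82 and 19.8 CPM. Within 84Q alone, the highest and lowest of the 3 libraries differed 967-fold, against 69.1-fold within 15Q and 15.0-fold within 84Q+IGF1, and all 3 groups overlapped. Behind these levels stood 18930 reads in 84Q replicate 2 and 15 in 84Q replicate 3. Ttr lies on chromosome 18 at 20665280 to 20674321 (GRCm38, plus strand).

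Enpp2, which encodes autotaxin, a secreted enzyme that makes lysophosphatidic acid, had 666, 129 and 651 CPM in 15Q, 152, 1038 and 123 CPM in 84Q, and 91.8, 108 and 145 CPM in 84Q+IGF1. It was the member with the highest level outside the high libraries. Per length the order of these genes turned, because the exons of Enpp2 are longer. In TPM, which divides by exon length, Ttr stood at 1200, 1176 and 2754 in 15Q replicate 1, 15Q replicate 3 and 84Q replicate 2, and Enpp2 at 464, 461 and 707. In the other 6 libraries Enpp2 was the higher of the pair, with 62.3 to 103 TPM against 2.80 to 67.7 TPM of Ttr.

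Kl encodes Klotho, a co-receptor for fibroblast growth factor 23 that is also shed into the cerebrospinal fluid, and it lies on chromosome 5 at 150952607 to 150993817. Its level was 54.5, 2.91 and 48.4 CPM in 15Q, 3.22, 77.6 and 0.744 CPM in 84Q, and 0.978, 1.45 and 4.85 CPM in 84Q+IGF1. F5 encodes coagulation factor V and lies on chromosome 1 at 164151838 to 164220277. Its level was 19.6, 1.79 and 23.8 CPM in 15Q, 1.04, 25.6 and 0.515 CPM in 84Q, and 0.553, 0.483 and 1.72 CPM in 84Q+IGF1. For both genes the 3 high values lay close together, and the lowest of them exceeded the highest of the other 6 values 9.98-fold for Kl and 10.9-fold for F5. The promoters of these genes are shown, as RefSeq gives them for GRCm38, because both genes were high and low in the same libraries. Each is the 250 bases before the transcription start on the plus strand, Kl at chr5:150952357-150952606 and F5 at chr1:164151585-164151834.
Kl: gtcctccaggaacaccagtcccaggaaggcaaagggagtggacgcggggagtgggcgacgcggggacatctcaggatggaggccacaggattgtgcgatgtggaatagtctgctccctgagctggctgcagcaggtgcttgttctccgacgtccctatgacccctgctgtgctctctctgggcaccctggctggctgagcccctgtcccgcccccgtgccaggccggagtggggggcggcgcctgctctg
F5: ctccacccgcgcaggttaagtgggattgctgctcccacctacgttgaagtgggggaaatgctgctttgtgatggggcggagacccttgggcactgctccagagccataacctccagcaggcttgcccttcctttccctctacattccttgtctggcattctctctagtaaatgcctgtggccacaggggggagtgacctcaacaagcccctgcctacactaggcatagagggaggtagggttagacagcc

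The remaining secreted members were lower. Sostdc1, an antagonist of bone morphogenetic proteins and Wnt, had 8.47, 7.50 and 16.0 CPM in the high libraries and at most 0.659 CPM in the other 6. The gene 1500015O10Rik, which encodes the secreted peptide precursor Ecrg4, and Sema3b, a secreted semaphorin, kept more of their level elsewhere, with ratios of 2.84 and 2.67 between the lowest of the 3 and the highest of the 6. Gdf7, a ligand of the bone morphogenetic protein family, reached only 0.807 to 1.36 CPM in the high libraries.

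Of the receptors, Folr1 had the second largest ratio of the set, 18.2. It had 4.98, 0.273 and 5.10 CPM in 15Q, 0.0693, 11.5 and 0 CPM in 84Q, and 0.0851, 0.0743 and 0.206 CPM in 84Q+IGF1. In reads, these were 134, 11 and 297 in 15Q, 2, 262 and 0 in 84Q, and 2, 2 and 6 in 84Q+IGF1, so 4 of the 9 libraries were at or under the floor of 3 counts. Folr1 lies on chromosome 7 at 101858331 to 101870788 (minus strand).

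**Figure D2:**
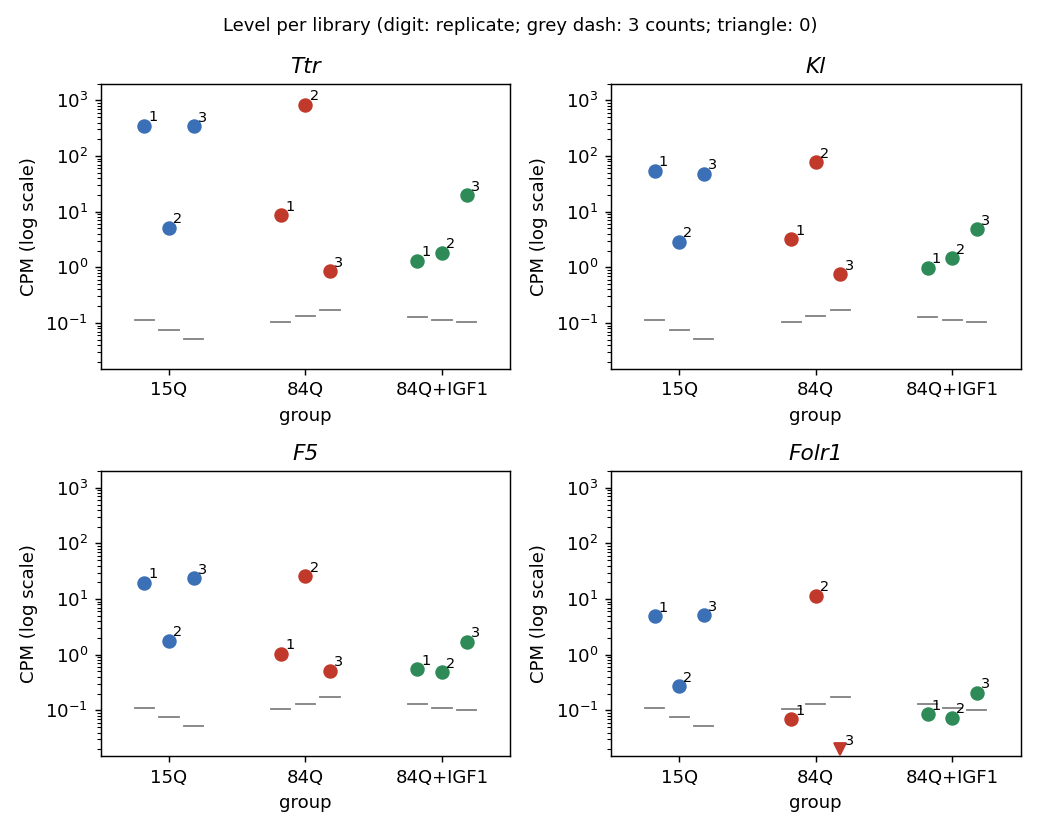
Level of Ttr, Kl, F5 and Folr1 in each library (points, with the replicate number beside each; CPM on a log axis), by group, with a grey dash at 3 counts and a triangle for a count of 0. In each panel 15Q replicates 1 and 3 and 84Q replicate 2 lie together at the top, and the 84Q+IGF1 libraries lie with the rest of 15Q and 84Q.

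Prlr, the prolactin receptor, which is abundant in the plexus, had 8.95, 1.07 and 15.6 CPM in 15Q, 1.04, 12.3 and 0.114 CPM in 84Q, and 0.0425, 0.409 and 0.756 CPM in 84Q+IGF1. Htr2c, the serotonin receptor 2C, is also made by neurons and was nearer to the limit of the set, and 84Q replicate 1 and 84Q+IGF1 replicate 3 still had 7.59 and 6.08 CPM against 16.7 to 25.6 CPM in the high libraries. Trpv4, an osmosensitive cation channel, had 6.25 to 9.43 CPM there and at most 2.68 CPM elsewhere. Crhr2, a receptor for corticotropin-releasing hormone and urocortins, had 1.19 to 2.10 CPM and at most 0.174 CPM elsewhere. Mfrp, a membrane protein related to the frizzled receptors, had 15.8, 13.6 and 24.4 CPM in the high libraries and 0.373 to 1.03 CPM in the other 6.

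Of the 8 listed ion and water transporters, Slc4a5, Car12 and Aqp1 are members. Clic6 lay below the limit, and Slc4a2, Slc4a10, Slc12a2 and Trpm3 had ratios of only 0.960 to 1.12. Slc4a5, a sodium bicarbonate cotransporter of the epithelium, had 18.1, 18.9 and 34.3 CPM in the high libraries and 1.62 to 3.78 CPM elsewhere. Car12, a carbonic anhydrase of the cell surface, had 14.9, 14.3 and 24.1 CPM against 0.510 to 1.48 CPM. Aqp1, the water channel that marks the plexus among brain epithelia, had 5.91, 4.72 and 9.43 CPM against 0.173 to 0.969 CPM. Best3, of the bestrophin family of chloride channels, was near the floor, with 0 to 3 reads in each of the other 6 libraries. The 250 bases before the start of Car12, at chr9:66713436-66713685 on the plus strand, hold 1 match to the forkhead core TGTTTA, in capitals, which begins 11 bases before the start.
Car12: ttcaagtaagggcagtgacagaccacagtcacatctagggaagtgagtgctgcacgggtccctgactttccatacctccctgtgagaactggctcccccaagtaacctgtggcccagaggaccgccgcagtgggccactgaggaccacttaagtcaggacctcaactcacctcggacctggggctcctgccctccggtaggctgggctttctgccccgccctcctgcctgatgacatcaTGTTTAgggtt

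Of the carriers of other solutes, Abca4, which moves retinoids across membranes, had 12.8 to 20.4 CPM in the high libraries and 1.36 to 2.61 CPM in the others. Slc2a12, a glucose transporter, had 5.80 to 10.1 CPM and at most 2.34 CPM elsewhere, and Slc39a4, a zinc importer, had 1.80 to 2.76 CPM and at most 0.451 CPM elsewhere. Steap1, of a family of metal reductases, and Oca2, a transporter of pigment granules, stayed between 1.01 and 2.06 CPM even in the high libraries. Among the barrier genes, the tight junction protein Cldn2, typical of leaky epithelia, had 6.83, 7.55 and 8.94 CPM there, and Cldn1, its partner in the plexus, 2.45, 3.47 and 5.31 CPM. In the other 6 libraries the highest values of this pair were 2.26 and 0.646 CPM, both in 15Q replicate 2. Msx1, a homeobox transcription factor, was the 1 transcription factor of the lists to enter the set, with 4.87 to 5.79 CPM against 1.06 to 2.29 CPM. Otx2, on which the plexus depends for its formation, did not. It had 18.1 to 20.0 CPM in the high libraries, 20.2 CPM in 84Q+IGF1 replicate 3 and 9.53 to 13.4 CPM in the rest.

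The other members are given here without a role in the plexus. Tmem72, a membrane protein, had 21.3, 21.4 and 32.9 CPM in the high libraries and 1.34 to 2.92 CPM elsewhere. Drc7, a part of the dynein regulatory complex of motile cilia, had nearly equal levels in the 3 high libraries (8.69, 8.56 and 8.90 CPM) and ranged from 0.0851 to 3.30 CPM in the other 6. Tmprss11a, a serine protease, had the largest ratio of the set, 25.4, but it rests on 17, 57 and 33 reads in the high libraries and 1 read in the other 6 together. Gm853 had a ratio of 14.6 with 27, 59 and 27 reads and at most 2 elsewhere. For these genes and for Best3, no library outside the high libraries had more than 3 reads, so their ratios carry the counting error of a few reads.

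Zfp185 and Wdr86 had 3.05 to 3.33 and 2.01 to 4.47 CPM in the high libraries. The remaining members, Prr32, Lrriq1, Wdr72, Myh7, 2900040C04Rik, Gm48898 and Gm26684, lay between 0.520 and 2.15 CPM in the high libraries. Over all 39 members the ratio between the lowest of the 3 and the highest of the 6 had a median of 4.0. It was 10 or more for 7 members and under 3 for 14, and the median member level was 5.79, 4.87 and 8.90 CPM in the high libraries and 0.213 to 0.756 CPM in the other 6.

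The definition sets a distance between the libraries but not the ratios among the 3 high ones, and these differed in a regular way. Between 15Q replicate 1 and 15Q replicate 3 the median log2 ratio of the 39 genes was −0.01, with quartiles of −0.18 and 0.16, and 19 of the 39 genes were higher in replicate 1. These libraries thus matched closely in the set, although their totals differed. In 84Q replicate 2 the members were higher, with a median log2 ratio of −0.55 for 15Q replicate 1 over 84Q replicate 2, and 3 of the 39 genes were higher in 15Q replicate 1. For 15Q replicate 3 over 84Q replicate 2 the median was −0.61, and 5 genes were higher in 15Q replicate 3. Over the 16165 genes of the background, the 3 medians lay within 0.01 of 0.

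**Figure D3:**
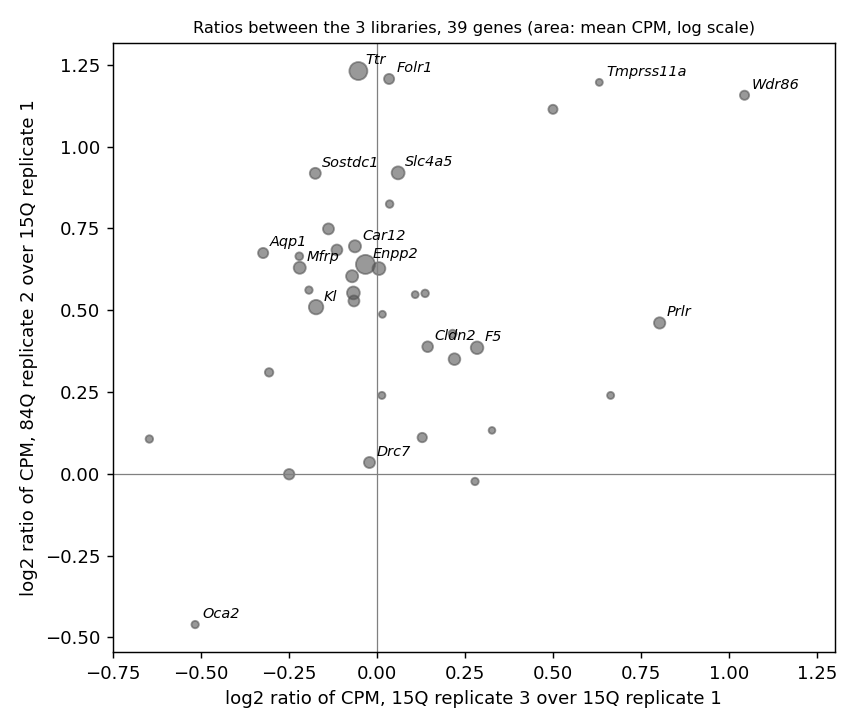
Log2 ratio of the CPM of each of the 39 genes (points, area by mean CPM) in 15Q replicate 3 over 15Q replicate 1 (x axis) and in 84Q replicate 2 over 15Q replicate 1 (y axis). Most points lie above 0 on the y axis and around 0 on the x axis, with Ttr and Folr1 near the top and Oca2 at the bottom.

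The rise in 84Q replicate 2 was not equal for all members. Against 15Q replicate 1, Ttr was 2.35-fold, Folr1 2.31-fold and Cldn1 2.16-fold higher, Slc4a5 and Sostdc1 both 1.89-fold, Enpp2 1.56-fold, Kl 1.42-fold, Prlr 1.38-fold and F5 1.31-fold. Drc7 was at 1.02-fold and Oca2 at 0.726-fold. Each of these is a ratio of 1 library to another, with no replicate behind it.

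Ttr and Folr1 kept nearly 1 proportion in all 3 high libraries, with 71.0, 66.9 and 72.3 Ttr reads for each Folr1 read in 15Q replicate 1, 15Q replicate 3 and 84Q replicate 2. In 15Q replicate 2 and 84Q+IGF1 replicate 3, the other libraries with more than 3 Folr1 reads, the proportions were 18.7 and 96.2, from 11 and 6 Folr1 reads. For Sostdc1 the proportions were 41.8, 45.5 and 51.9. For Kl they were 6.49, 7.05 and 10.7, and 1.15 to 4.09 in the other 6 libraries. For F5 they were 18.1, 14.3 and 32.5. Ttr thus fell further than Kl from the high to the other libraries.

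Among the other 6 libraries, the set was not at 1 level either. 15Q replicate 2 had the highest value of the 6 for 15 members, 84Q+IGF1 replicate 3 for 12 and 84Q replicate 1 for 9. The lowest value was in 84Q+IGF1 replicate 1 for 16 members and in 84Q replicate 3 for 9. Over the 21 members with more than 3 counts in each of the 6, the highest and lowest library differed by a median of 2.77-fold, with 23.1-fold for Ttr at the top. 84Q replicate 3 and 84Q+IGF1 replicates 1 and 2 had 14, 13 and 10 members at or under 3 counts, against 5 or 6 in 15Q replicate 2, 84Q replicate 1 and 84Q+IGF1 replicate 3 and 0 in the high libraries.

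The design of the study compares the groups, and the members entered these comparisons with 2 high libraries in 15Q, 1 in 84Q and 0 in 84Q+IGF1. Genes were tested with edgeR's quasi-likelihood test over all 9 libraries and called where the Benjamini-Hochberg adjusted p was under 0.1 and the level changed 1.5-fold or more. All 39 members were among the 19353 genes tested. Since the definition used the same libraries, the calls of members are a description.

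In 84Q against 15Q, 0 of the 39 members were called by edgeR, where 2.14% of all tested genes were called, and 0 by the DESeq2 Wald test (2.18% of the genes with an adjusted p). DESeq2 gave no p for 7 members in any comparison, namely Ttr, Folr1, Enpp2, Abca4, Car12, Slc4a5 and Tmem72, so only 32 members could be called by it. The fit without a filter on low counts called 5 members (2.71%), but its estimated spread was that of the trend over all genes and not of each gene, with a median quasi-likelihood dispersion of 0.740 for the members in place of 7.83. None of the 39 reached an unadjusted p under 0.05, which 19.4% of all genes did. The log2 fold change was below 0 for 34 members, with a median of −0.29 and a range from −0.96 to 0.27. The level of Ttr was 233 ± 198 CPM (SD, n = 3) among the 15Q mice against 280 ± 476 CPM among the 84Q mice, a log2 difference of 0.27 ± 1.56 (SE) with an edgeR adjusted p of 0.947. Folr1 had 3.45 ± 2.75 and 3.85 ± 6.61 CPM, Kl 35.3 ± 28.2 and 27.2 ± 43.7 CPM, and F5 15.1 ± 11.7 and 9.04 ± 14.3 CPM. The standard errors had a median of 0.79 over the members and 0.12 over all tested genes, a spread that the selection fixed by requiring high and low libraries within both groups. The largest departure was a log2 fold change of −0.96 for 2900040C04Rik, and the lowest adjusted p was 0.447.

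In 84Q+IGF1 against 15Q, 0 members were called by edgeR, against 2.25% of all tested genes, while DESeq2 called Lrriq1 alone among the 32 members with an adjusted p (2.46% of all such genes). An unadjusted p under 0.05 was found for 37 of the 39 members and for 17.7% of all genes. All 39 log2 fold changes were below 0, with a median of −2.48. The definition put high libraries in 15Q and not in 84Q+IGF1, which fixed this direction and favoured small p-values, so neither is a test. The lowest edgeR adjusted p was 0.125, for Lrriq1 at −1.86 ± 0.56 (log2 fold change ± SE). Ttr had 7.66 ± 10.5 CPM (SD, n = 3) in 84Q+IGF1, or −4.88 ± 1.94 as log2 fold change ± SE, with an edgeR adjusted p of 0.222. F5 had 0.918 ± 0.694 CPM and −3.98 ± 1.31 on the same scale, with an edgeR adjusted p of 0.152. For Kl the log2 fold change was −3.81 and for Folr1 −4.72. In 17 members every 84Q+IGF1 library lay below every 15Q library, Folr1, F5, Prlr, Aqp1, Cldn1, Cldn2 and Sostdc1 among them. The definition had already set 15Q replicates 1 and 3 above 84Q+IGF1, so only 15Q replicate 2 decided this. The share of all tested genes separated in this direction, 13.8%, is thus not a like background. Ttr and Kl were not separated, as 15Q replicate 2 lay below 84Q+IGF1 replicate 3 in both. A fit to the libraries of these groups alone tested 26 members and called 21 of them (3.06% of all tested genes), and the fit without the filter, with its low spread, called 39 (3.4%).

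The comparison of 84Q+IGF1 with 84Q gave no calls, where edgeR called 0 members and 0% of all tested genes, and DESeq2 called 0 of 32 members (0.0159% of all genes with an adjusted p). The fit without the filter called 34 (0.444%). An unadjusted p under 0.05 was found for 21 of the 39 and for 4.68% of all genes. All 39 log2 fold changes were below 0, with a median of −2.04, and each adjusted p was 0.969. For Ttr the log2 fold change was −5.15 with a standard error of 1.96. The definition put a high library, 84Q replicate 2, in 84Q and not in 84Q+IGF1, which favoured this direction and small unadjusted p-values. Without that library the median was −0.02. With all libraries, the groups were separated for 3 members, Gdf7, Lrriq1 and Wdr72, against 5.19% of all tested genes in this direction. For each member the definition had already set 84Q replicate 2 above 84Q+IGF1.

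Among the libraries left out in turn, the number of called members changed most with 84Q replicate 2. Without this library, which leaves 2 libraries in 84Q, edgeR called 10 members lower in 84Q against 15Q (2.22% of all tested genes were called). They were Cldn1, Cldn2, Folr1, Aqp1, F5, Car12, Trpv4, 1500015O10Rik, Sema3b and Zfp185, and the median log2 fold change over the members moved from −0.29 to −2.24. The high libraries that remain are all in 15Q, so the definition fixed this direction, and the calls are a description of selected genes. For 84Q+IGF1 against 15Q, where the same holds, 23 members were called lower without 84Q replicate 2 (2.98% of all) at nearly the same median of −2.47. This library is in neither of those groups, but without it both the estimated spread and the genes passing the filter changed, with 19906 genes tested in place of 19353, and the part of each in the calls was not tested. For 84Q+IGF1 against 84Q, the median over the members went from −2.04 to −0.02, no member was called (0.0452% of all were), and the log2 fold change of Ttr was 0.57 in place of −5.15. Leaving out any other library left at most 2 members called in any comparison. The direction in 84Q against 15Q also turned with other libraries, as the median log2 fold change over the members was 0.09 without 15Q replicate 3, 0.18 without 84Q replicate 1 and 0.15 without 84Q replicate 3, in place of −0.29. In the same comparison the log2 fold changes of Ttr and Folr1 were below 0 without 15Q replicate 2 (−0.30 and −0.37), and that of Kl was above 0 when 15Q replicate 1 (0.09) was left out, or either of the low 84Q libraries (0.18 and 0.19).

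**Figure D4:**
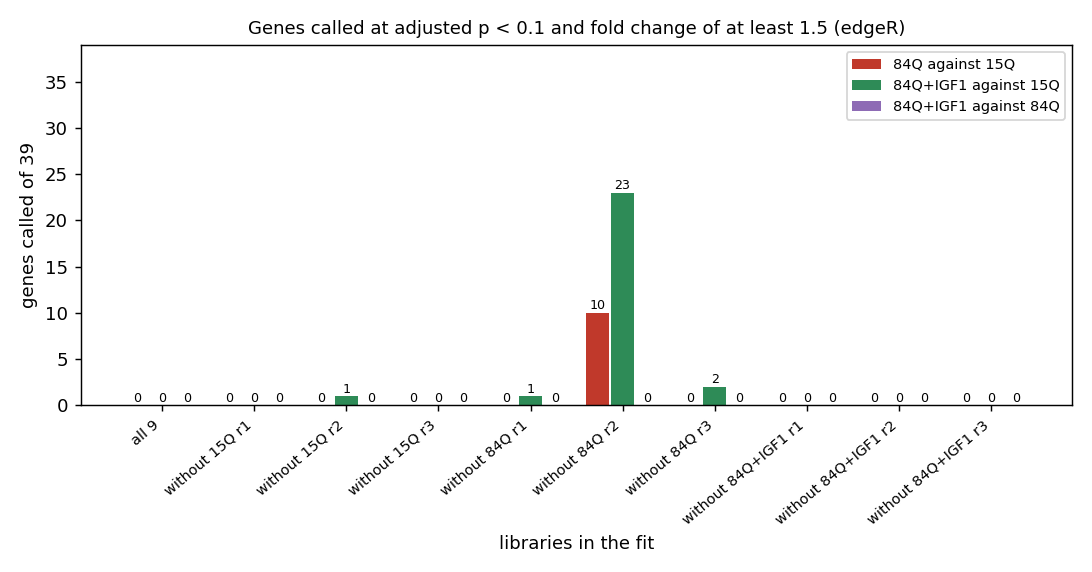
Number of the 39 genes called by edgeR (bars, colour by comparison, number above each bar) with all 9 libraries and with each library left out. The count is 10 and 23 in the comparisons with 15Q without 84Q replicate 2, and between 0 and 2 in every other case.

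Of the 47 genes of the choroid plexus lists, members and others together, 46 were tested. In 84Q against 15Q, edgeR called 1, Krt8, lower in 84Q, a share near the 2.14% of all tested genes. DESeq2 called 2 of the 41 with an adjusted p here (4.88%, against 2.18% of all such genes). Between 84Q+IGF1 and 15Q, DESeq2 called 7 of 41 (17.1%, against 2.46%). There edgeR called 6 (2.25% of all tested genes were called), all lower. Among them were the keratins Krt8 and Krt18 of simple epithelia, the growth factor Bmp7, the secreted protease inhibitor family member Wfdc2 and the sulfate transporter Slc13a4. None of the 6 is a member, and in 84Q+IGF1 against 84Q edgeR called 0 of the 46 and DESeq2 0 of the 41 with an adjusted p, with an unadjusted p under 0.05 for 19 of the 46 and for 4.68% of all tested genes. These counts include members, whose levels the definition used. Without 84Q replicate 2 the counts were 14 in 84Q against 15Q and 24 in 84Q+IGF1 against 15Q. Without 84Q replicate 1 or 84Q+IGF1 replicate 1 the first was 2, and without 15Q replicate 3 or 84Q+IGF1 replicate 1 the second was 2. By list, the 6 calls fell on 2 of 8 secreted, 1 of 6 tested solute carrier and 3 of 14 barrier and other genes, and on none of the receptors, ion and water transporters and transcription factors. The median log2 fold change over the 46 was −0.18, −1.67 and −1.20 in the 3 comparisons, against −0.00, −0.01 and −0.00 over all tested genes.

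The called list genes named here did not fall as far in 15Q replicate 2 as the members did. That library had 10.4 CPM of Bmp7 and 22.6 CPM of Slc13a4, against 11.1 and 25.3 CPM in 15Q replicate 1. In 15Q replicate 3 the values were 16.5 and 44.9 CPM, so 15Q replicate 2 was still the lowest 15Q library for Bmp7 and Slc13a4. Krt8 had 3.60, 4.92 and 5.82 CPM in the 15Q libraries and 0.416, 1.36 and 0.0572 CPM in 84Q, with 0.0851 to 0.309 CPM in 84Q+IGF1. As log2 fold change ± SE, it stood at −2.92 ± 0.51 in 84Q (edgeR adjusted p of 0.0135) and at −4.47 ± 0.59 in 84Q+IGF1 (0.00180), both against 15Q. Krt18 had 3.94, 3.08 and 4.51 CPM in 15Q, 0.416, 2.15 and 0.0572 CPM in 84Q and at most 0.481 CPM in 84Q+IGF1. Within 84Q, replicate 2 was the highest library for both keratins, as it was for the members. Wfdc2 had 0.743 to 1.18 CPM in the 15Q libraries and 0.965 CPM in 84Q replicate 2, with at most 0.139 CPM in the other 5.

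The summed markers of other cell types did not follow the order of libraries seen in the members. None of the 10 genes of motile cilia and ependyma was a member, and their sum was 73.4 to 104 CPM across the 9 libraries, most of it from Dnah11, Dnah6, Ccdc39 and Hydin. Spag6l, a gene of motile cilia on this list, did follow the order, with 1.63, 0.671 and 1.29 CPM in 15Q, 0.555, 1.97 and 0.0572 CPM in 84Q, and at most 0.756 CPM in 84Q+IGF1. Its ratio lay below the limit of 2, and Drc7, also of motile cilia, is a member. The endothelial sum was 210 to 252 CPM. Plvap, the marker of fenestrated vessels such as those of the plexus, was 11.9 to 18.2 CPM and highest in 84Q replicate 2, and with Esm1 that list summed to 12.1 to 18.3 CPM. The sums were 5857 to 6559 CPM for Purkinje cells, 3465 to 4129 for granule cells, 1350 to 2018 for Bergmann glia and astrocytes, 2367 to 3977 for oligodendrocytes and 39.1 to 56.5 for the brainstem, nearly all of it Slc6a5. The markers of kidney and of pigment epithelium, tissues that share some of the members, summed to 1.28 to 2.66 and 1.75 to 3.28 CPM.

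The lists of meninges, border macrophages and liver, which held called genes, had their highest sum in 15Q replicate 3, and 84Q replicate 2 was not the highest library of 84Q in any of them. The meningeal sum was 451 to 764 CPM in 15Q, 235 to 488 in 84Q and 235 to 418 in 84Q+IGF1, and in 84Q replicate 2 it was 266 CPM, below 84Q replicate 1. In 84Q against 15Q, Lum was called lower among the 10 meningeal genes, and in 84Q+IGF1 against 15Q Dcn and Lum were. The border macrophage sum was 11.1 to 21.2, 5.89 to 11.2 and 7.23 to 7.99 CPM, with Cd163 called in 84Q+IGF1 against 15Q. The liver sum was 5.24 to 11.4 CPM in 15Q, 0.936 to 2.23 in 84Q and 0.510 to 0.780 in 84Q+IGF1, and Alb, Fgb and Fgg were called lower in both comparisons with 15Q. In 15Q replicate 2, where the members were low, the liver sum was 9.81 CPM, between those of the other 15Q libraries. The red blood cell sum was highest in 15Q replicate 2, at 211 CPM, against 23.0 to 81.2 CPM in the other 8 libraries, and none of its 5 genes was called. No gene of the remaining 11 lists was called in any comparison by edgeR or DESeq2 (which gave at least 52 of their 59 genes an adjusted p), and an unadjusted p under 0.05 was found for 8, 8 and 4 of their 47 tested genes in the 3 comparisons, where 19.4%, 17.7% and 4.68% of all tested genes had one. Their part in the levels of the members was not tested.

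**Figure D5:**
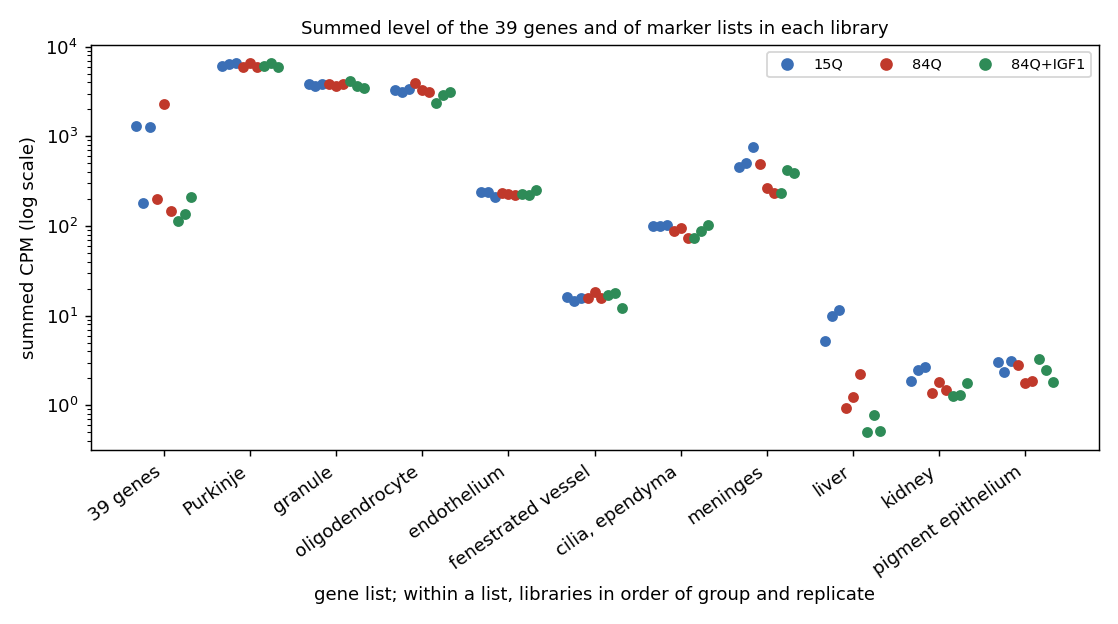
Summed CPM (log axis) of the 39 genes and of marker lists in each library (points, in order of group and replicate within a list, colour by group). The 39 genes split into 3 high points and 6 lower ones, the sums for neurons, oligodendrocytes, vessels and ependyma show no such split, and the liver list is highest in the 15Q libraries.

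The 5 genes that the definition leaves out by symbol met its numbers. Kcne2, a potassium channel subunit of the plexus, had 8.58, 0.298 and 10.3 CPM in 15Q, 0.277, 13.1 and 0.0572 CPM in 84Q and 0.255 to 0.825 CPM in 84Q+IGF1, a ratio of 10.4. Kcnj13, a potassium channel of the plexus and the retinal pigment epithelium, had a ratio of 6.04, Igfn1 of 4.83 and Col8a1, a collagen chain of basement membranes, of 3.99. Igfbp2, a binding protein of the insulin-like growth factors that the plexus secretes, met the ratio only just, with 2.02. It had 30.9, 10.2 and 33.1 CPM in 15Q, 15.3, 54.8 and 10.3 CPM in 84Q, and 9.74 to 11.4 CPM in 84Q+IGF1. Against 15Q it stood at −1.19 ± 0.55 (log2 fold change ± SE) in 84Q+IGF1, with an edgeR adjusted p of 0.281, and it was not called in any comparison.

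Beyond expression, the members shared little in position. They lie on 15 chromosomes, with 6 on chromosome 5 and 4 each on chromosomes 6, 9, 15 and X, and 36 of the 39 are protein coding (92.3%, against 83.2% of the 17028 genes at the same minimum level). Symbols of solute carriers made up 3 of the 39, or 7.69%, against 1.69% of those genes. Neighbouring members were Enpp2 and Gm26684, whose exons overlap on opposite strands of chromosome 15, and Gdf7 and Gm48898, which lie 4223 bases apart on the same strand of chromosome 12. The strand setting of the counting is not given in the sources used here, so the 146 reads of Gm26684 cannot be told apart from those of Enpp2, which had 100605 reads. The same holds for Slc2a12, with 1027 reads, whose exons overlap Tbpl1 on the opposite strand, with 13583 reads, and for Mfrp, whose exons overlap Rnf26 on the opposite strand.

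Promoters from RefSeq (GRCm38) were found for 27 of the 39 members, in 30 windows of the 250 bases before the start. Their median GC content was 56.4%, against 52.4% over all 32851 windows. The core of OTX sites, TAATCC on either strand, was in 2 of the 30 member windows (6.67%), those of Abca4 and Mfrp, and in 6.25% of all windows. The forkhead core TGTTTA was in 5 windows of 4 genes (16.7%), Car12, Cldn2, Gdf7 and Prlr, against 12% of all. The homeobox core TAATTA was in those of Abca4 and Cldn1 (6.67%, against 4.84%), and the RFX core GTTGCC in those of Aqp1, Lrriq1, Prr32 and Steap1 (13.3%, against 10.4%). All motifs were searched on both strands. The 30 bases around both OTX cores are shown because Otx2 is the factor best known for the plexus, with the match to the reverse complement GGATTA in capitals, Abca4 at chr3:122044390-122044419 and Mfrp at chr9:44101624-44101653 on the plus strand. A match of letters is a description and not a binding site. The core begins 58 bases before the RefSeq start of Abca4 and 134 bases before that of Mfrp. Both windows overlap an annotated untranslated region, unlike the promoters printed in full above.
Abca4: gtaattagagggGGATTAtgcttgaagggg
Mfrp: ctcagctgagttGGATTAaggaccattccg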

How the data were processed

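RNA-seq of cerebellar tissue was analysed for 9 mice, grouped by their labels as 15Q, 84Q and 84Q+IGF1 with 3 in each. Per the labels and the study's methods, total RNA was made into strand-specific libraries (Agilent SureSelect) and read as 150 bp pairs. The submitters' processing notes name bcl2fastq 2.20, Trimmomatic 0.36, HISAT2 2.2.0 and featureCounts. The authors aligned the reads to GRCm38.p6. The annotation and the strand setting of the counting are not given in the sources used here. The deposited values are read counts per gene, without normalization, in 1 table of 37816 genes and 9 libraries, and the table was used as deposited.

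From these counts, CPM was computed with the raw library totals, and TPM with the exon lengths of GENCODE vM21, in which 37681 genes had a position. Groups were compared with the quasi-likelihood test of edgeR 4.0.16 in R 4.3.3. All 9 libraries entered 1 fit, scaled by TMM, after filterByExpr had removed genes with low counts, and p-values were adjusted by Benjamini-Hochberg over the remaining genes. The thresholds, 0.1 for the adjusted p and 1.5 for the fold change, are those of the study's methods, whose DESeq2 Wald test (1.42.0) is an alternative here. All tests were two-sided. The fit was tested on simulated data. Standard errors were derived from the F statistic. A chi-square per gene of 9.58 to 16.1 between replicates showed no pair alike within sampling noise. The labels do not give housing, litter or dissection, so p-values measure the spread between these mice.

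The members and the gene lists were chosen with earlier results of these data known. Genes named are Ttr, Folr1, Kl and F5, the 10 members with the highest mean CPM, the 5 with the largest ratio, those next to the limit of 2, the genes of the 6 choroid plexus lists, at most 4 genes of any other list and the symbols left out by the definition. The other members, Spag6l of the cilia list, and list genes named because they were called, were named after their values were seen. The values of 1 gene of these lists are not reported here. The other lists were cilia and ependyma, meninges, endothelium, fenestrated vessels, border macrophages, red blood cells, liver, kidney, pigment epithelium, brainstem, Purkinje cells, granule cells, Bergmann glia and astrocytes, and oligodendrocytes. Promoters were taken from RefSeq (GRCm38.p6). Alternatives were DESeq2, its size factors, no filter on low counts, other thresholds, the replicate number as a block, only the groups compared, each library left out, and other limits for the definition.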

Additional observations from a re-analysis of the deposited data

How the results depend on the processing

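Under other settings, 130 log2 fold changes kept their direction and their side of the threshold, 17 passed the threshold only in the alternative and 13 reversed, while 6, those of Ttr and Folr1 with DESeq2, kept their direction but had no adjusted p. Of the counts, 72 were equal to the main count, 13 differed from it by at most 1.5 times and 26 differed by more. The definition gave 25 genes at a ratio of 3, 107 without the minimum and 59 without 15Q replicate 2. Called members numbered 0 in each comparison. Without a filter on low counts they numbered 5 in 84Q against 15Q, 39 in 84Q+IGF1 against 15Q and 34 in 84Q+IGF1 against 84Q (0.444% of all genes). In that fit the prior degrees of freedom were infinite, against 5.73 with the filter, so each gene's own spread was replaced by the trend over all genes, and the median quasi-likelihood dispersion of the members was 0.740 in place of 7.83. With the 2 groups compared alone, 21 were called in 84Q+IGF1 against 15Q, with 26 members tested, and DESeq2 called 1. Leaving out 1 library gave 0 to 10 members in 84Q against 15Q and 0 to 23 in 84Q+IGF1 against 15Q. Of the choroid plexus list genes, 1 was called in 84Q against 15Q, 2 with DESeq2, 11 without the filter, and 1 to 14 with 1 library left out. Between 84Q+IGF1 and 15Q 6 were called, 33 without the filter, 24 with the groups compared alone, 2 at an adjusted p under 0.05, and 2 to 24 with 1 library left out. The 24 and the 14 are those without 84Q replicate 2, and 2 were left without 15Q replicate 3 or without 84Q+IGF1 replicate 1. Between 84Q+IGF1 and 84Q, 28 were called without the filter.

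With 1 library left out, log2 fold changes in 84Q against 15Q ranged from −5.44 to 0.85 for Ttr, −6.20 to 0.78 for Folr1, −4.02 to 0.19 for Kl and −4.18 to −0.17 for F5. Each lowest value is that without 84Q replicate 2, and Ttr and Folr1 were also below 0 without 15Q replicate 2 (−0.30 and −0.37). Kl was above 0 when 15Q replicate 1 (0.09), 84Q replicate 1 (0.18) or 84Q replicate 3 (0.19) was left out. Between 84Q+IGF1 and 15Q the ranges were −7.18 to −4.41, −5.35 to −4.27, −4.82 to −3.36 and −4.84 to −3.46 for Ttr, Folr1, Kl and F5, and all 4 genes were called without 84Q replicate 2. Between 84Q+IGF1 and 84Q they were −7.45 to 0.57, −5.52 to 1.48, −4.46 to 0.21 and −4.11 to 0.21, with the highest value without 84Q replicate 2. Without the filter on low counts the values were −4.88, −4.72, −3.81 and −3.98 in 84Q+IGF1 against 15Q, −5.14, −4.89, −3.44 and −3.25 in 84Q+IGF1 against 84Q, and −0.73 for F5 in 84Q against 15Q, and each was called. With the groups compared alone, Ttr (−4.86), Kl (−3.80) and F5 (−3.98) were called in 84Q+IGF1 against 15Q.

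The replicate numbers did not pair the samples, since same-numbered libraries had correlations of −0.309 to 0.0788 of their deviations. With the replicate block, 0 members were called in each comparison, 3 choroid plexus list genes were called in 84Q+IGF1 against 15Q in place of 6, and in 84Q against 15Q Ttr was at −1.59 and Folr1 at −1.26. Members at or under 3 counts, whose levels rest on a few reads, numbered 0 to 14 of the 39 per library, with 0 in 84Q replicate 2 at 22808219 counts and 6 in 15Q replicate 2 at 40249019.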

Other observations

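When 15Q replicate 2 was not considered, 59 genes met the definition, symbols that begin with Col, Kcn or Igf again left out. The 39 members were among them, with 20 more. The 20 are Krt8, Krt18, Dsp, Cldn3, Wfdc2, Lbp, Dpep1, Ace, Npr3, Steap4, Slc28a3, Myo5b, Tmem184a, Rbm47, Dpt, Rd3, Wfikkn2, Gda, BC067074 and Gm44250. Dsp, a gene of desmosomes, had 6.39, 7.63 and 10.9 CPM in the 15Q libraries, 0.555, 2.67 and 0 CPM in 84Q, and 0.213 to 0.447 CPM in 84Q+IGF1, so that 15Q replicate 2 was not low and 84Q replicate 2 was the highest of its group. Lbp, a lipopolysaccharide-binding protein, had 9.10, 4.32 and 8.29 CPM in 15Q, 1.63, 10.7 and 1.54 CPM in 84Q, and 0.468 to 1.07 CPM in 84Q+IGF1. Dpep1, a dipeptidase, had 0.704 to 0.919 CPM in 15Q and 1.14 CPM in 84Q replicate 2, and at most 1 read in each of the other 5 libraries. These genes were picked with their values in view, and the share of a group effect in them was not tested.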
